A study of Mus musculus with 13 samples.

Results

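The 5 RAS tumors of this mouse study were set against its 3 samples of normal brain, gene by gene. The members are the 8 libraries that the labels place in those groups, of 13 in the series, and all 55416 gene rows of the deposited count table, without its 4 summary rows. The RAS tumors are labelled glioblastoma with the genotype HrasV12-shp53: a lentivirus carrying HRasV12 and a short hairpin RNA against p53 was delivered to the motor cortex of CNP-Cre mice (Cnp tm1(cre)Kan), whose Cre recombinase is driven by the Cnp gene of the oligodendrocyte lineage. GFP-positive tumor tissue was taken at the clinical endpoint from 5 mice, and no sorting of cells is described. The normal samples (titles NBT-M1, NBT-F1 and MBT-F2, here normal 1, 2 and 3) are labelled WT. The protocol describes normal tissue as dissected off GFP-positive tumor under a microscope, so the samples may come from beside a tumor, and neither their brain region nor the mice they came from are given in the sources used here. A comparison group of 5 tumors was induced with PDGFB and the same kind of hairpin (genotype PDGFB-shP53). The p-values come from 1 fit over all 13 libraries and rest on the spread between samples within the 3 groups, PDGFB tumors included. Replicates differed more among the RAS tumors than among the normal samples. Age, strain background and sex have no field in the labels.

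RAS proteins are small GTPases that pass growth factor signals to the RAF, MEK and ERK kinases, and the V12 form of HRAS stays bound to GTP. ERK signalling switches on genes for its own inhibitors, for growth factors of the EGF family, for cyclin D and for AP-1 transcription factors of the FOS and JUN families. Gliomas with strong RAS and ERK signalling often carry a mesenchymal programme, in which the tissue makes Vim, Cd44, collagens and other matrix genes and is rich in macrophages.

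Values are normalised CPM, a gene's reads relative to the library's reads on all tested genes, after scaling between libraries. Changes are log2 fold changes with their standard error (SE) from edgeR's quasi-likelihood test, and a gene is called when its Benjamini-Hochberg adjusted p over all tested genes is under 0.05. Where a group had no read, the fold is a lower bound that puts 3 reads over that group. Where it had 1 to 3 reads, the printed ratio of counts has an exact 95% counting interval. Of each library, between 529162 and 643055 reads were counted to genes, 4.24% to 4.75% of the uniquely mapped reads, so a gene at 2 CPM rests on about 1 read. Fewer cells of a type and less RNA per cell cannot be told apart in these bulk samples.

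The counted reads lay mostly on genes that share exon bases with a gene on the other strand. Such rows were 17.1% of the matched genes and held 83.9% of the counted reads, 114 reads per kilobase of exon against 8.16 for the 68.7% of genes with no gene on the opposite strand. Between 84.5% and 87.3% of all reads were recorded as outside any gene. How the counting treated strand is not given in the sources used here. Whether the reads of a row come from its own gene or from the opposite partner was not tested. The name of a row with a partner may therefore not be the gene its reads come from. Genes below share no exon bases with an opposite gene in GENCODE M21 unless a partner is named, although some lie across an intron of one or enclose one in their own introns. The largest changes among rows with a coding partner are described together near the end.

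The first principal component of the 8 libraries held 76.5% of the variance and separated the groups. RAS tumor 2 scored 12.25 on it, between the other RAS tumors (54.04 to 72.83) and the normal samples (-94.34 to -92.16). It was the tumor nearest to normal brain for 58.1% of the genes called lower and 39.4% of those called higher, against 8.37% to 14.3% and 10.7% to 22% for each of the other 4 tumors. RAS tumor 5 stood apart on the second component (6.26% of the variance). Leaving out either tumor moved the number of members called in each direction by at most 2 in every gene list below.

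The genes named by the labels were read first. Trp53, the target of the hairpin, read 8.41, 5.02, 0, 5.26 and 0 CPM in RAS tumors 1 to 5 and 7.82, 0 and 5.58 CPM in the normal samples, 11 and 7 reads in all, too few to test. The Hras row read 42.1, 20.1, 27.3, 21.0 and 15.8 CPM in the tumors and 37.1, 41.3 and 29.8 CPM in the normal samples, a log2 fold change of -0.50 (SE 0.39, adjusted p = 0.286). The 2 groups overlapped, and the row does not show whether the viral HRasV12 is counted in it. Cnp, which drives the Cre and shares exon bases with Dnajc7 on the other strand, was 624 ± 68.7 CPM (SD, n = 5) in the tumors and 761 ± 77.7 CPM (SD, n = 3) in normal brain (-0.29, SE 0.16, adjusted p = 0.128). Pdgfb had 11 reads in the tumors and 13 in normal brain and was not tested. These rows neither bear out nor contradict the tumors' labels.

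Of 7722 genes with enough reads to test, 4340 were called (56.2%): 2081 were higher in RAS tumors (26.9%) and 2259 were lower (29.3%). The change was at least 2-fold for 3761 of them, and at least 4-fold for 913 of the higher and 1108 of the lower genes. In 4049 genes (52.4%) the tumors' CPM range lay wholly outside that of normal brain. The median log2 fold change over all tested genes was 0.02. In 72 called genes the normal samples had no read at all, and in 1, Ttr, the tumors had none. A gene that passed the low-count filter only through its high group had to differ, so the counts of each gene group below describe that group and are to be read against these percentages.

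Among genes with no gene opposite, the 12 largest rises by fitted log2 fold change were all without a read in the 3 normal libraries. Without normal reads the fitted value rests partly on the prior count, so this ranking favours such genes. Genes with a few normal reads can have larger printed folds, such as Spp1 (172-fold) and Vim (54.0-fold) against Akr1b8 (at least 22.2-fold). Because the folds of the 12 are lower bounds, which genes rose most cannot be told. Nes, the intermediate filament of neural progenitors (chr3:87971078-87980451, + strand, GRCm38), read 241, 159, 164, 238 and 291 CPM in RAS tumors 1 to 5 (at least 110.0-fold higher, adjusted p = 1.87e-08). Every tumor was above every normal library by a wide margin, and tumor 5 was the highest. Thbs2, a matricellular thrombospondin, read 225, 104, 111, 349 and 45.6 CPM (at least 84.1-fold, adjusted p = 8.23e-06). Fbln2, a matrix fibulin, read 175, 38.5, 105, 102 and 57.9 CPM (at least 48.2-fold, adjusted p = 5e-06). Both varied several-fold among the tumors and were not highest in the same ones. S100a11, a calcium-binding partner of annexins (chr3:93520488-93526287, + strand), read 113, 45.2, 40.0, 70.1 and 151 CPM (at least 42.2-fold, adjusted p = 5.4e-06). Myof, a membrane-repair ferlin, ranged from 26.8 to 114 CPM (at least 36.0-fold). Lgals3, a galectin of macrophages and mesenchymal tumor cells, ranged from 23.4 to 111 CPM (at least 30.7-fold). Capg, an actin-capping protein of motile cells, ranged from 15.1 to 132 CPM (at least 27.4-fold). In Myof, Lgals3 and Capg tumor 2 was the lowest and tumor 5 the highest. Akr1b8, an aldo-keto reductase, ranged from 23.4 to 64.8 CPM (at least 22.2-fold, adjusted p = 4.88e-06). The other 4 of the 12 largest rises were Col6a1, Col5a2, Cdkn2a and Cd74, described with their groups.

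**Figure D1:**
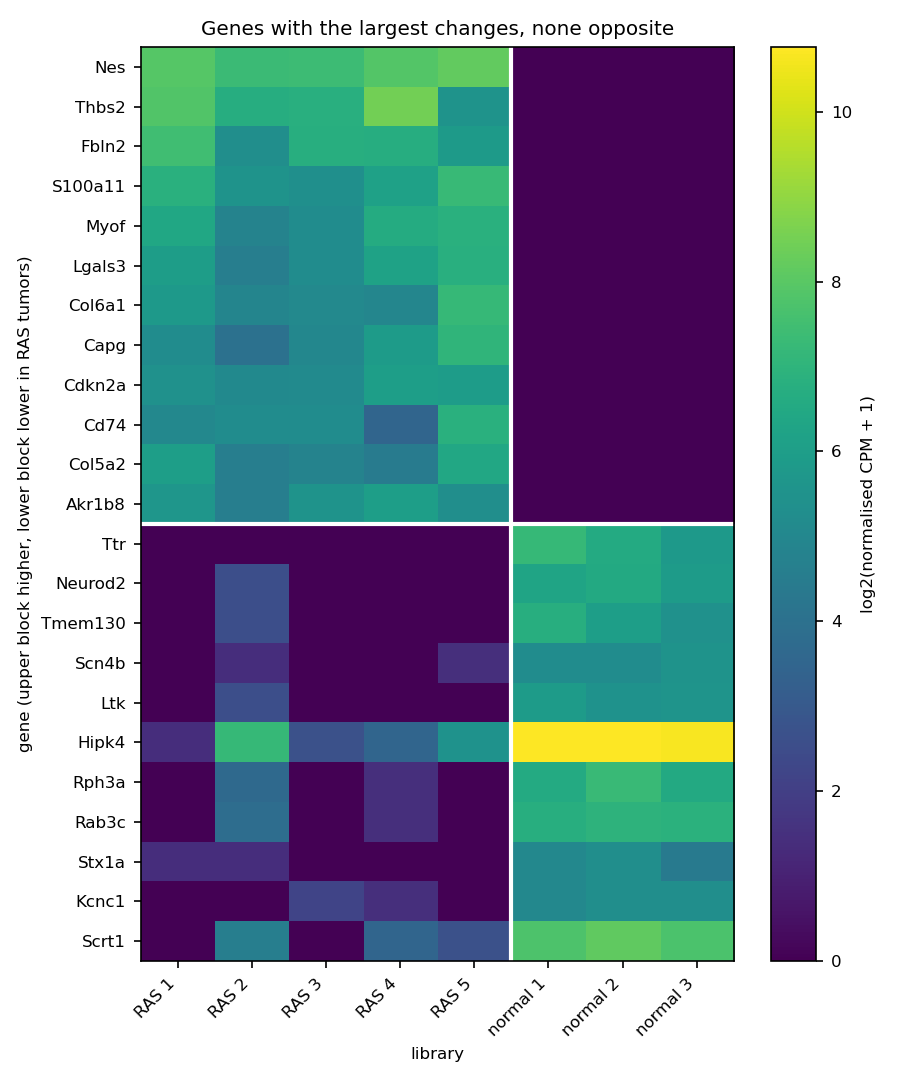
Each column is a library and each row a gene with no gene on the opposite strand; the colour is log2(normalised CPM + 1), and the white lines part the 5 RAS tumors from the 3 normal samples and the 12 largest rises from 11 of the 12 largest falls. Rises and falls were ranked by fitted log2 fold change. The 12 genes above the line are at 0 in all 3 normal samples. Below the line, RAS tumor 2 is the column with the most remaining signal.

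The largest falls among genes with no gene opposite were led by Ttr and Neurod2. Ttr, the transthyretin of the choroid plexus, had no read in the tumors and read 147, 95.6 and 53.9 CPM in normal brain (at least 94.2-fold lower, adjusted p = 1.6e-06). The choroid plexus and ependyma list summed to 8.76 to 22.8 CPM in the tumors and 74.4 to 178 CPM in the normal samples, so how much plexus each sample held is a part of this value that was not tested. Neurod2, a transcription factor of cortical excitatory neurons, was at 0 in 4 tumors and 5.02 CPM in tumor 2, against 76.2, 91.3 and 59.5 CPM in normal brain (ratio of counts 71.9 lower, interval 24 to 354, adjusted p = 6.37e-06). Scn4b, a sodium channel subunit, read 0, 1.67, 0, 0 and 1.76 CPM against 37.1, 36.9 and 44.6 CPM (ratio 57.3, interval 15.2 to 484). Rph3a, a synaptic vesicle effector of Rab3, read 0, 11.7, 0, 1.75 and 0 CPM against 93.8, 156 and 91.1 CPM (38.2-fold lower, log2 -5.25, SE 0.67, adjusted p = 6.23e-06). Wherever these neuronal genes kept reads in the tumors, tumor 2 was among those that had them. The same held for Rab3c, a vesicle GTPase (35.0-fold lower). Hipk4, a kinase, read 1.68, 147, 5.45, 10.5 and 43.9 CPM against 1735, 1697 and 1601 CPM (39.7-fold lower, adjusted p = 1.27e-05). The coding gene nearest to Hipk4 on the other strand, Pld3, lies 824 bases beyond its 3′ end, and whether its reads enter this row was not tested. Tmem130, Ltk, Stx1a, Kcnc1 and Scrt1 were also among the 12 largest falls.

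The mesenchymal glioma list holds genes known from the mesenchymal subtype of glioblastoma, and 18 of its 20 tested members rose, none fell and the median log2 fold change was 5.79 (5.01 with genes absent from normal brain at their bound). Vim, the intermediate filament of mesenchymal cells and reactive glia, read 525, 360, 536, 590 and 888 CPM in the tumors and 7.82, 6.52 and 16.7 CPM in normal brain (54.0-fold higher, log2 5.75, SE 0.38, adjusted p = 1.11e-08). The lowest tumor was far above the highest normal library. Timp1, an inhibitor of matrix metalloproteases that lies in an intron of a gene on the other strand, read 177, 98.7, 180, 280 and 119 CPM and had no read in normal brain (at least 85.7-fold, adjusted p = 1.44e-06). Cd44, the hyaluronan receptor, read 101, 56.9, 54.5, 75.3 and 87.8 CPM and had none in normal brain either (at least 37.9-fold, adjusted p = 7.19e-07). Vim, Timp1 and Cd44 are also members of the reactive astrocyte list, so their rise is not particular to the mesenchymal list. Lgals1, a galectin of tumor and stromal cells, was 441 ± 185 CPM (SD, n = 5) against 4.61 ± 0.866 CPM (SD, n = 3), 91.1-fold higher. Bhlhe40 (log2 0.61, adjusted p = 0.272, exons opposite 0610040F04Rik) and Tnfrsf12a (1.11, adjusted p = 0.0728) were not called. Summed over the list, the tumors held 1399 to 3277 CPM and the normal samples 108 to 137 CPM. Tumor 2 had the lowest sum and tumor 5 the highest. With either tumor left out, 19 of 20 and 17 of 19 tested members rose.

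Among 16 tested regulators linked to the mesenchymal state, 12 rose and 1 fell (median 2.74). Hmga2, a chromatin protein of embryonic cells whose exons overlap 1700006J14Rik, read 219, 115, 195, 186 and 300 CPM and had no read in normal brain (at least 102-fold, adjusted p = 7.69e-08). Twist1, a mesenchymal transcription factor, read 40.4, 20.1, 12.7, 24.5 and 45.6 CPM against 1.95, 8.69 and 0 CPM (8.11-fold, log2 3.02, SE 0.73, adjusted p = 0.00195). The groups did not overlap for either gene. The Hippo pathway effectors Tead1 (10.8-fold, within an intron of an opposite gene) and Wwtr1 (11.1-fold) rose, as did Prrx1, a homeobox factor (ratio of counts 23, interval 7.72 to 113). Zeb1 (exons opposite Gm10125) and Runx2 (opposite Runx2os1) were among those not called (0.87 and 0.47), and the row that fell was Fosl1, taken up with its partner Ccdc85b.

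Matrix genes rose broadly. Of 16 tested collagens 14 rose and 1 fell (median 3.94), and of 21 tested matrix glycoproteins and proteoglycans 18 rose and 1 fell (median 4.39, or 4.14 at the bounds). Col6a1, a chain of the microfibril collagen VI, read 53.8, 28.5, 32.7, 29.8 and 146 CPM against none (at least 29.2-fold, adjusted p = 0.000116). Col5a2, a fibrillar collagen, read 63.9, 23.4, 27.3, 21.0 and 87.8 CPM against none (at least 22.5-fold, adjusted p = 0.000121). Tumor 5 was the highest for both, by a wide gap in Col6a1. Col1a2, a chain of collagen I, was at 179 CPM in tumor 5 and between 30.9 and 70.3 CPM in the others (21.3-fold, log2 4.41, SE 0.80, adjusted p = 0.000169). Col20a1 was the collagen that fell (-1.77, SE 0.71, adjusted p = 0.0415). The fibroblast and meninges markers Col1a1, Col1a2, Col3a1 and Pdgfra all rose, and the whole list of 12 genes summed to 504 CPM in tumor 5 against 164 to 189 CPM in the other tumors and 34.8 to 39.1 CPM in normal brain. The part of fibroblast-like cells in the collagen values was not tested. Without tumor 5, 12 of 14 tested collagens rose and none fell.

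Outside the collagens, Tnc, the tenascin of developing and injured brain (exons opposite 8030451A03Rik), read 337, 179, 200, 363 and 300 CPM against 3.91, 4.35 and 1.86 CPM (78.1-fold, log2 6.29, SE 0.50, adjusted p = 7.59e-08). Spp1, osteopontin, a secreted ligand of CD44 and integrins, read 574, 214, 480, 359 and 814 CPM against 0, 0 and 7.44 CPM (172-fold, log2 7.42, SE 0.75, adjusted p = 7.53e-07). Sparc, which binds collagen, was 630 ± 224 CPM (SD, n = 5) against 79.0 ± 14.3 CPM (SD, n = 3), 7.94-fold higher. None of these 3 overlapped between groups. Bcan, the brevican of the brain's own matrix, fell (-1.88, SE 0.61, adjusted p = 0.0148), although tumor 3 (20 CPM) lay above the lowest normal library (16.7 CPM). Ncan and Tnr, which belong to the same neural matrix, were not called (-0.05 and -0.71; exons of Tnr lie opposite Gm38039).

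Receptors for the matrix rose too. Of 16 tested integrins and matrix receptors 13 rose and none fell (median 3.29). Itgb1, the beta subunit shared by most collagen, laminin and fibronectin receptors, read 1233, 459, 485, 1261 and 1022 CPM against 35.2, 63.0 and 26.0 CPM (21.6-fold, log2 4.44, SE 0.41, adjusted p = 2.99e-07). Tumors 2 and 3 were at well under the level of the other 3 and still far above normal brain. Itgb3 had no read in normal brain and 15.1 to 38.5 CPM in the tumors (at least 12.7-fold). Itga5, the alpha subunit of the fibronectin receptor, rose 13-fold (log2 3.70, SE 0.74). Itgb8, the subunit that activates TGF-beta in brain, was not called (-0.34, adjusted p = 0.572). Of 19 tested extracellular proteases and their inhibitors 13 rose, or 15 without tumor 2, and 1 fell (median 2.62). Plau, urokinase, read 69.0, 40.2, 58.2, 92.8 and 239 CPM against 0, 2.17 and 0 CPM (ratio of counts 150, interval 26.7 to 5937, adjusted p = 1.84e-05). Its receptor Plaur read 16.8, 11.7, 27.3, 26.3 and 33.4 CPM against none (at least 11.5-fold, adjusted p = 0.000336). Mmp14, the membrane metalloprotease that activates Mmp2, rose 17.4-fold (log2 4.12, SE 0.57), and Mmp2 rose 6.13-fold (log2 2.62, SE 0.40). The row that fell is Mmp11, whose exons overlap Chchd10 on the other strand (2246 to 295 CPM on average).

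Of 23 tested actin and contractile genes 22 rose and none fell (median 3.32). Flna, the actin crosslinker filamin A, read 254, 112, 124, 186 and 188 CPM against 1.95, 0 and 9.3 CPM (41.6-fold, log2 5.38, SE 0.54, adjusted p = 7.33e-07). Tpm2, a tropomyosin, read 69.0, 45.2, 38.2, 103 and 323 CPM against 1.95, 4.35 and 0 CPM (ratio of counts 58.0, interval 19.7 to 282, adjusted p = 0.000121). Tumor 5 was more than 3 times the next tumor in Tpm2, while Flna was highest in tumor 1. Myh9, non-muscle myosin, rose 9.99-fold (log2 3.32, SE 0.51), and only Csrp1 of the list was not called (0.47, adjusted p = 0.224). Of 10 tested annexins and S100 genes 9 rose and none fell (median 3.82). Anxa1, a membrane-binding annexin with anti-inflammatory roles (in an intron of an opposite gene), read 111, 38.5, 65.4, 116 and 107 CPM against none (at least 44.0-fold, adjusted p = 2.79e-06). S100a6 read 251, 88.7, 138, 194 and 430 CPM against 1.95, 4.35 and 0 CPM (ratio of counts 111, interval 37.7 to 538, adjusted p = 4.37e-06). S100a1 was not called (1.02, adjusted p = 0.0531). Tumor 2 was the lowest tumor for Flna, Anxa1 and S100a6, and tumor 3 for Tpm2. Without tumor 2, all 23 actin genes and all 10 annexin and S100 genes rose.

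**Figure D2:**
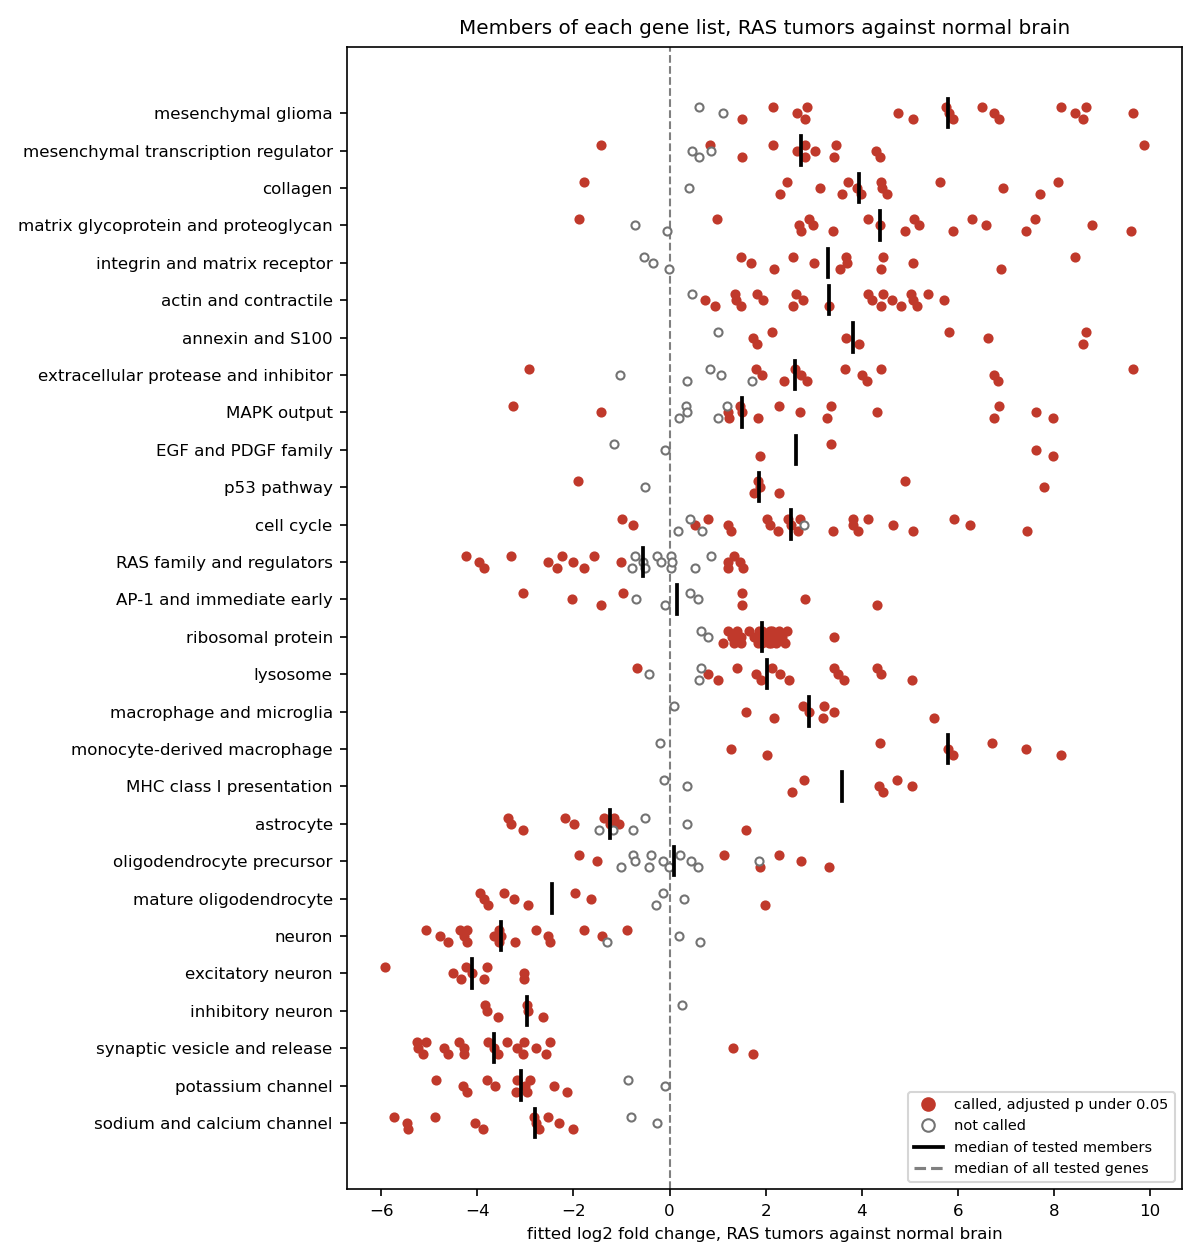
Each row is a gene list and each point a tested member at its fitted log2 fold change between the 5 RAS tumors and the 3 normal samples; filled points are called at an adjusted p under 0.05, open points are not, black bars are the medians of the tested members and the dashed line is the median of all tested genes (0.02). The medians of the matrix, actin and mesenchymal lists lie to the right of the dashed line, those of the neuron, synapse and channel lists to the left, and members of the RAS family and AP-1 lists on both sides; fitted values of genes absent from one group depend on the prior count.

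The genes that ERK signalling induces did not move as a block. Of 21 tested members of the MAPK output list 14 rose and 2 fell (median 1.51), and those that rose most were the EGF family ligands and surface proteins. Ereg, epiregulin (exons opposite Gm19610), read 74.0, 31.8, 58.2, 78.8 and 29.8 CPM against none (at least 27.4-fold, adjusted p = 1.6e-05). Areg, amphiregulin, read 50.5, 10, 43.6, 43.8 and 64.9 CPM against none (at least 21.3-fold, adjusted p = 0.000238). Hbegf, the heparin-binding ligand, read 37.0, 35.1, 36.4, 61.3 and 47.4 CPM against 0, 8.69 and 3.72 CPM (10.4-fold, log2 3.37, SE 0.63, adjusted p = 0.000211). All 5 tumors were above all 3 normal libraries for the 3 ligands, and Areg was lowest in tumor 2. Tgfa, another ligand of the family (exons opposite Gm43917), was not called (-1.15, adjusted p = 0.201). Emp1, a membrane protein, read 143, 61.9, 94.5, 103 and 105 CPM against 0, 0 and 1.86 CPM (ratio of counts 153, interval 27.3 to 6082, adjusted p = 1.93e-06). Ier3, an early response gene, rose too (ratio 22.8, interval 6.12 to 191).

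The feedback inhibitors of the pathway changed less. Dusp6, the phosphatase of ERK, read 58.9, 65.3, 63.6, 45.5 and 59.7 CPM against 21.5, 15.2 and 24.2 CPM (2.85-fold, log2 1.51, SE 0.28, adjusted p = 0.000213). Spry4 rose 9.62-fold (log2 3.27, SE 0.56), Spred1 2.31-fold (1.21, SE 0.34) and Dusp4 2.35-fold (1.23, SE 0.48, adjusted p = 0.0366). Spry1 (0.34, exons opposite Gm42922), Spry2 (adjusted p = 0.122) and Dusp5 (1.19, opposite AC137853.2) were not called. Of the ETS factors downstream of ERK, Etv4 rose (1.85, SE 0.72, adjusted p = 0.035), while Etv1 and Etv5 were not called (0.36 and 0.20). Epha4, an ephrin receptor that is also a neuronal gene, fell 9.52-fold (-3.25, SE 0.67). The list summed to 1115 to 1378 CPM in the tumors against 346 to 450 CPM in normal brain. Of 27 tested genes of the RAS family and its regulators 5 rose and 11 fell (median -0.56). Among those that fell were the small GTPases Rasd2 (18.8-fold lower) and Diras2 (15.6-fold lower) and the exchange factor Rasgrp1 (9.78-fold lower). Of the 13 tested members of this list with no gene on the opposite strand, 4 rose and 4 fell (median 0.04). Nras, a RAS gene, was not called (0.87, adjusted p = 0.116), nor was Mapk3, the gene of the kinase ERK1 (0.05).

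**Figure D3:**
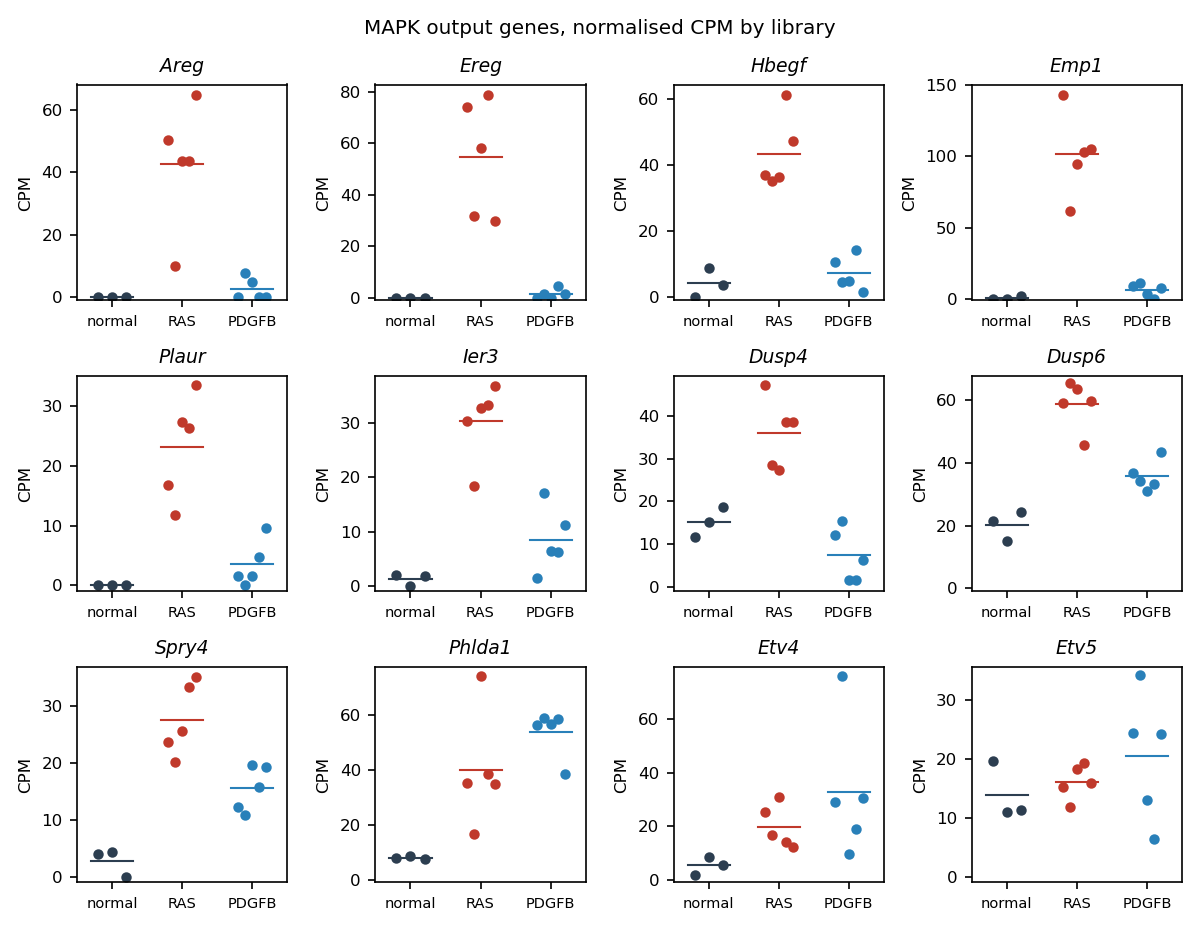
Each panel is a gene of the MAPK output list, with normalised CPM by library in normal brain (3), RAS tumors (5) and PDGFB tumors (5); points are libraries and lines are group means. Areg, Ereg, Emp1 and Plaur are at or near 0 in all normal samples, whereas the normal and RAS points of Etv5 overlap.

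Of 12 tested AP-1 and immediate early genes 4 rose and 4 fell (median 0.16). Fosl2 rose (1.51, SE 0.61, adjusted p = 0.0441), but tumor 2 at 3.35 CPM lay below all 3 normal samples (5.86, 15.2 and 14.9 CPM). Fos and Myc were not called (0.42 and 0.59), and Arc, an immediate early gene of active neurons, fell 8.23-fold (-3.04, SE 0.77). Promoters were searched for TGANTCA, the letters bound by AP-1 dimers and equal to their own reverse complement. Among called genes with no gene opposite and a RefSeq promoter window of 300 bases (250 before and 50 after the gene's start), the letters occurred in 46 of 582 higher genes (7.9%), 23 of 447 lower genes (5.15%) and 48 of 906 genes not called (5.3%). Over all 32851 windows of that length the share was 7.81%. That share is per window, whereas a gene was counted once if any of its windows held the letters, so the 2 are not alike. The difference between the groups of genes was not tested. Of the 12 largest rises 10 had a window and 2 of them held the letters, S100a11 and Col6a1. The windows of S100a11, Emp1 and Plaur are printed to show where the letters lie in genes described above, and were chosen for holding them after their values were seen. They are RefSeq sequences of GRCm38.p6, given 5′ to 3′ on the gene's strand, with the matches in capitals. S100a11 is at chr3:93520246-93520545 (+), with matches that begin 136 and 38 bases before the start. Emp1 is at chr6:135362681-135362980 (+), with matches at 145 and 25 bases. Plaur is at chr7:24462233-24462532 (+), with 1 match at 69 bases. A match describes the letters and not a bound site.
S100a11: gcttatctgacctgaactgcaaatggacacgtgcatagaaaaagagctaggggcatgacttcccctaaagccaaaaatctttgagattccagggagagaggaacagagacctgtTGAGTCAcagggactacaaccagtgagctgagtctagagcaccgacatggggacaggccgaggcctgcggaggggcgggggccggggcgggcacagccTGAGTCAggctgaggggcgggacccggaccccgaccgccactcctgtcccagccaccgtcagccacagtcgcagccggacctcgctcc
Emp1: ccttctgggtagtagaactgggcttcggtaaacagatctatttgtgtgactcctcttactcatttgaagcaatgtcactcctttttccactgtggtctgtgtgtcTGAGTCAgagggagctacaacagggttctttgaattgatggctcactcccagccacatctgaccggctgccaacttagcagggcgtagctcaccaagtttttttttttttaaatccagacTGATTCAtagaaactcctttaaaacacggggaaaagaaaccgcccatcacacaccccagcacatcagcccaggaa
Plaur: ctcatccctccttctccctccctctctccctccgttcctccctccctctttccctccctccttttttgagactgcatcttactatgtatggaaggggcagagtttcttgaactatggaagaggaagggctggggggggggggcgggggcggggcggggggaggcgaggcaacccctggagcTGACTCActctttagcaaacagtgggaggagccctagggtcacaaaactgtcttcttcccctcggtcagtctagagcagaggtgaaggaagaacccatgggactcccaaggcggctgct

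Genes of division rose, together with inhibitors of the cell cycle. Of 27 tested cell cycle genes 21 rose and 2 fell (median 2.53, or 2.26 at the bounds). Tpx2, a spindle protein, read 38.7, 30.1, 21.8, 22.8 and 73.7 CPM against none (at least 18.9-fold, adjusted p = 5.05e-05). Cdk1, the mitotic kinase, read 26.9, 16.7, 14.5, 12.3 and 10.5 CPM against none (at least 8.21-fold, adjusted p = 0.000326). Mki67 rose 5.77-fold (log2 2.53, SE 0.59), and Pcna, the clamp of DNA replication, rose 2.42-fold (1.27, SE 0.46, adjusted p = 0.0257). The 2 rows that fell, Nusap1 and Mcm7, both have a coding partner opposite (Oip5, and Ap4m1 with Cops6). Of 8 tested p53 pathway genes 6 rose and 1 fell (median 1.87). Cdkn2a, the locus of p16 and p19ARF, read 42.1, 33.5, 34.5, 64.8 and 61.4 CPM against none (at least 23.7-fold, adjusted p = 2.3e-06). Its neighbour Cdkn2b rose with a ratio of counts of 39.3 (interval 6.84 to 1572). All 5 tumors carried reads of both inhibitors. Among direct targets of p53, Cdkn1a (exons opposite AC167363.2) rose 4.84-fold (2.28, SE 0.38), Mdm2 3.59-fold (1.85, SE 0.55) and Ccng1 3.36-fold (1.75, SE 0.46), while Zmat3 fell 3.73-fold (-1.90, SE 0.33).

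Most tested neuronal markers fell. Of 21 tested general neuronal markers 18 fell and none rose (median -3.50), of 9 excitatory markers all fell (-4.12), and of 7 inhibitory markers 6 fell (-2.97). The inhibitory list summed to 1768 CPM in tumor 5, 26.3 to 375 CPM in other tumors and 774 to 872 CPM in normal brain. Most of the tumor 5 sum lay on the Dlx1 row, opposite Dlx1as. Snap25, the SNARE protein of synaptic vesicle fusion, read 0, 70.3, 1.82, 0 and 19.3 CPM in the tumors against 428, 459 and 495 CPM (24.6-fold lower, log2 -4.62, SE 0.77, adjusted p = 8.04e-05). Slc17a7, the vesicular glutamate transporter, read 3.37, 45.2, 0, 3.5 and 1.76 CPM against 186, 226 and 219 CPM (18.8-fold lower, -4.23, SE 0.72). Gad2, a GABA-synthesising enzyme, fell 7.65-fold (-2.94, SE 0.67). Tumor 2 was the highest tumor for each of the 3 and still below every normal library. Tubb3, a neuronal tubulin, fell less, 1.85-fold (-0.89, SE 0.30, adjusted p = 0.0168), and its groups overlapped. Stmn2, a growth cone protein, missed the threshold (-1.30, adjusted p = 0.0504). Of 21 tested genes of synaptic vesicles and release 19 fell (median -3.66), and the 2 that rose were Syt4 (1.33, exons opposite Gm26658) and the Unc13a row, whose exons overlap Colgalt1. Of 14 tested sodium and calcium channel genes 12 fell and none rose (-2.79), and the same numbers held for 14 potassium channel genes (-3.09). The astroglial channel Kcnj10 was among those not called (-0.10, adjusted p = 0.83). Without tumor 2 the calls were 17 of 21 for general markers, with 1 higher, 9 of 9 for excitatory markers and 19 of 21 for release genes.

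Markers of mature oligodendrocytes and astrocytes mostly fell, and precursor genes showed no clear shift as a list. Of 12 tested markers of mature oligodendrocytes 8 fell and 1 rose (median -2.45). Mbp, the myelin basic protein gene, read 26.9, 93.7, 18.2, 24.5 and 54.4 CPM against 627, 480 and 695 CPM (13.7-fold lower, -3.78, SE 0.41, adjusted p = 1.34e-06). Mobp, another myelin gene, fell 15.5-fold (-3.95, SE 0.62). Trf, transferrin, which oligodendrocytes and other cells make, was the marker that rose, from 76.0 ± 20.5 CPM (SD, n = 3) to 302 ± 121 CPM (SD, n = 5), 3.96-fold (1.99, SE 0.34). Of 18 tested genes of oligodendrocyte precursors 5 rose and 2 fell (median 0.10). Over all tested genes 26.9% were called higher and 29.3% lower, and the sign of the precursor median changed in some alternative fits. Sox10, the lineage's transcription factor, read 89.2, 40.2, 115, 73.6 and 26.3 CPM against 11.7, 21.7 and 9.3 CPM (4.83-fold, 2.27, SE 0.50). Olig2, a factor of the same lineage, was not called (-0.42, adjusted p = 0.512), and its tumor values of 1.68 to 18.2 CPM spanned the normal ones of 8.69 to 13.7 CPM. Pdgfra, the receptor that marks precursors, rose 3.70-fold (1.89, SE 0.40; exons opposite Gm42802 and Gm42803). Of 15 tested astrocyte markers 9 fell and 1 rose (-1.24), led by the glutamate transporter Slc1a2 (10.2-fold lower, exons opposite Gm13872) and the glycolytic enzyme Aldoc (8.23-fold lower). Sox9 rose 3.02-fold (1.59, SE 0.60, adjusted p = 0.0308). The astrocyte list summed to 882 CPM in tumor 2, 278 to 369 CPM in the other tumors and 1241 to 1583 CPM in normal brain. Without tumor 2, 10 of 14 astrocyte genes fell, and without tumor 5, 7 did and none rose. Of 7 tested reactive astrocyte genes 4 rose and none fell (median 5.75, or 5.24 at the bounds). The 4 were Timp1, Cd44, Serpina3n and Vim, which are described with other lists. The reactive astrocyte list summed to 1003 to 1313 CPM in the tumors and 96.7 to 119 CPM in normal brain. Gfap, the filament of reactive astrocytes, was 251 CPM in tumor 2 and 21.8 to 87.8 CPM in the others, and was not called (0.96, adjusted p = 0.243).

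Macrophage genes rose. Of 9 tested macrophage and microglia markers 8 rose and none fell (median 2.91), and of 9 tested genes of monocyte-derived macrophages 8 rose (5.80, or 4.39 at the bounds). Lyz2, the macrophage lysozyme, read 158, 182, 175, 233 and 193 CPM against 0, 2.17 and 9.3 CPM (45.2-fold, log2 5.50, SE 0.53, adjusted p = 4.67e-07). Ctss, a lysosomal protease of myeloid cells, rose 10.8-fold (3.43, SE 0.36), and the complement gene C1qa rose 6.81-fold (2.77, SE 0.42). Arg1, an arginase of wound-type macrophages, read 25.2, 23.4, 30.9, 56.1 and 109 CPM against 0, 2.17 and 0 CPM (ratio of counts 73.3, interval 12.9 to 2917). All 4 were present in every tumor and no group overlapped. Csf1r, the macrophage growth factor receptor, was the marker not called (0.09), and its row shares exon bases with Hmgxb3. Of 4 tested genes of resting microglia only Olfml3 rose (6.13-fold), and the median was 0.49. The neutrophil list summed to 3.37 to 14.0 CPM in the tumors and the B cell list to 0 to 12.3 CPM. The T and NK cell list summed to 276 to 809 CPM in the tumors and 205 to 244 CPM in normal brain, and its 1 tested member, the Foxp3 row, rose from 215 to 448 CPM on average (1.06, adjusted p = 0.00461), with exons opposite Ccdc22, Gm36995 and Ppp1r3f. Cd3d, Cd8a, Trac, Ms4a1 and Ly6g had no read in either group.

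Most tested MHC class I genes were higher, whereas class II genes were split. Of 8 tested MHC class I genes 6 rose (median 3.59), among them H2-D1 (33.0-fold, log2 5.04, SE 0.74) and the shared light chain B2m (20.6-fold, 4.37, SE 0.42). B2m read 325, 243, 171, 233 and 351 CPM against 11.7, 15.2 and 11.2 CPM. Among 5 tested class II genes, Cd74, the invariant chain, read 32.0, 36.8, 36.4, 10.5 and 112 CPM against none (at least 22.9-fold, adjusted p = 0.000181), and H2-Aa and H2-Ab1 had none in normal brain either. Tumor 5 was the highest for both classes. Of the 5 tested class II genes 3 rose and 2, the H2-DMa and Ciita rows, fell (-0.97 and -2.60). Both of these rows share exon bases with coding genes, Brd2 and Dexi. The class II list summed to 222, 298, 227, 175 and 460 CPM in RAS tumors 1 to 5 and 271 to 299 CPM in normal brain. Of 7 tested interferon response genes 6 rose (2.17), and all 6 tested complement and acute phase genes rose (3.05), led by Serpina3n, a protease inhibitor of reactive astrocytes (ratio of counts 166, interval 29.6 to 6578). Of 18 tested lysosomal genes 14 rose and 1 fell (2.02), for example Cd63, a vesicle tetraspanin (33.1-fold, 5.05, SE 0.54). The 3 tested endothelial markers all rose, Plvap and Cd93 without a read in normal brain (at least 10.8-fold and 11.2-fold). The endothelial list summed to 144 to 267 CPM in the tumors and 47.8 to 62.5 CPM in normal brain.

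**Figure D4:**
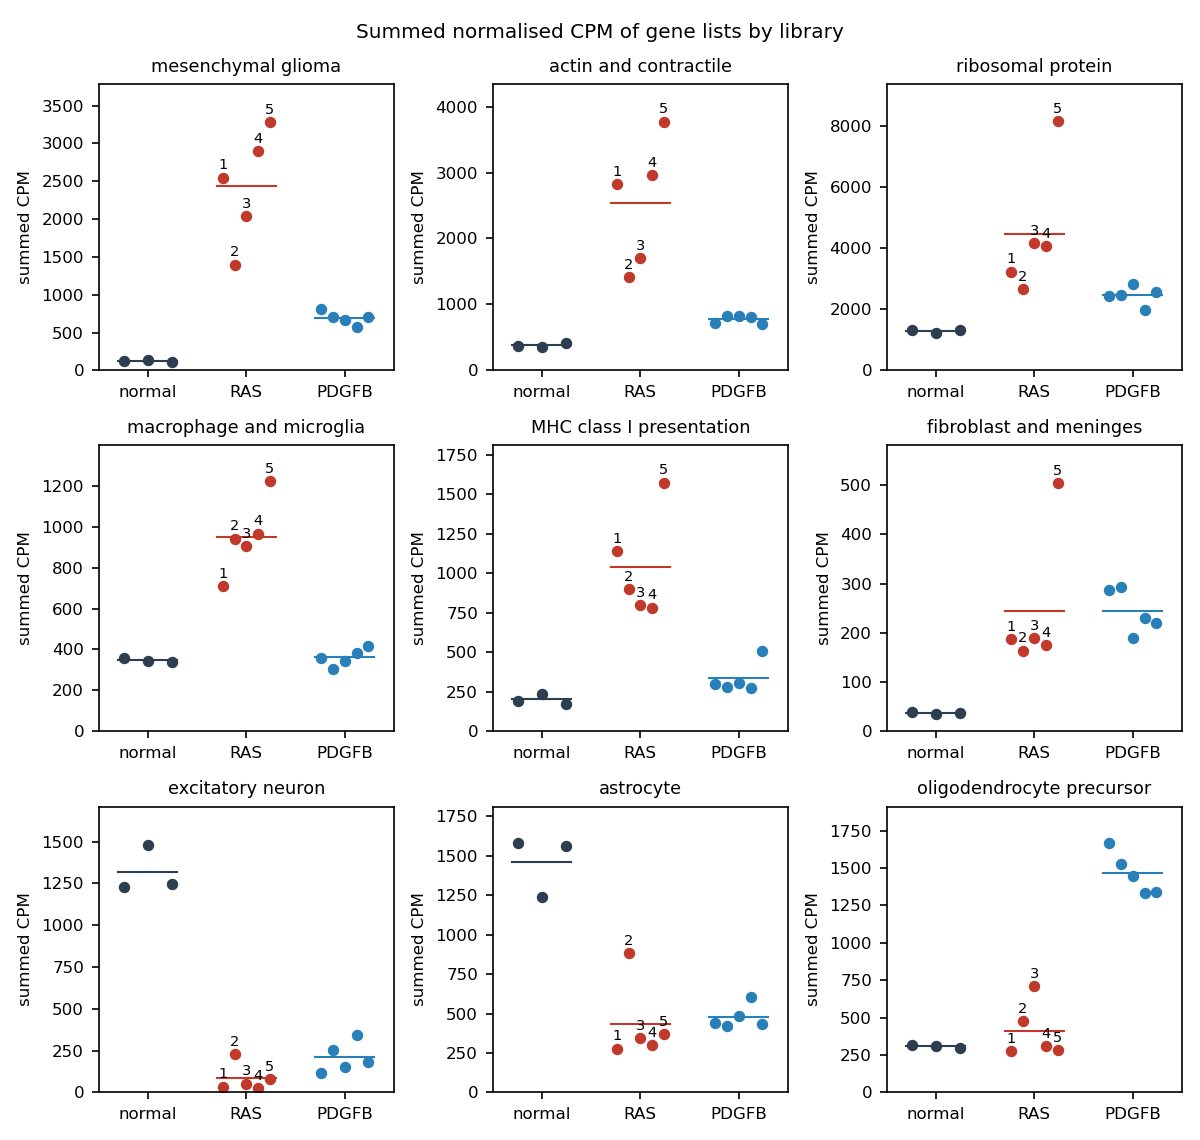
Each panel is the summed normalised CPM of a gene list in every library of normal brain (3), RAS tumors (5, numbered) and PDGFB tumors (5); lines are group means and all axes start at 0. RAS tumor 5 is the highest point for mesenchymal, actin, ribosomal, MHC class I and fibroblast genes, and RAS tumor 2 is the highest RAS tumor for the excitatory neuron and astrocyte lists.

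Cytosolic ribosomal protein genes were higher as well, with 27 of 29 tested members called, or 29 without tumor 2, and none lower (median 1.92). Rplp0, a stalk protein of the large subunit, read 259, 174, 264, 359 and 477 CPM against 23.5, 19.6 and 40.9 CPM (10.8-fold, log2 3.43, SE 0.36, adjusted p = 9.89e-07), and the other called members had log2 fold changes of 1.11 to 2.45. The list summed to 8160 CPM in tumor 5, 2654 to 4154 CPM in the other tumors and 1224 to 1315 CPM in normal brain. Of 10 tested genes of the TGF-beta, BMP and WNT list 7 rose and none fell (2.17). Of these, Lef1, a transcription factor of WNT signalling (exons opposite Gm43352), lost its call without normal 1 or normal 2. Bmp1, a procollagen protease, read 106, 46.9, 65.4, 89.3 and 77.2 CPM against 1.95, 2.17 and 1.86 CPM (ratio of counts 38.8, interval 13.1 to 189). Tgfb1 was at 8.37 to 47.4 CPM against 3.91, 0 and 0 CPM (ratio 21.5, interval 5.76 to 180). Both groups of values were separate for these genes.

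Markers of brain regions were examined because the region of the normal samples is not given. Of 7 tested striatal markers 6 were lower in the tumors (median -4.02), and the list summed to 419 to 494 CPM in normal brain and 21.0 to 85.4 CPM in the tumors. Of 3 tested cerebellar markers all were lower, and of 4 hippocampal markers 3 were lower. Of 3 thalamic markers 1 was higher (Lef1). The 1 tested hypothalamic marker, the Pmch row, whose exons overlap those of Parpbp, was higher. With the reads of each row given to its opposite partner, Pmch has a log2 fold change of -7.64. Ppp1r1b, a striatal gene (exons opposite 1700003D09Rik), read 91.8, 84.8 and 93.0 CPM in the 3 normal samples. The tumors were induced in motor cortex, and the part of brain region in the falls was not tested.

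The RAS tumors were also compared with the PDGFB tumors. RAS tumors were higher in 1346 genes (17.4%) and lower in 1130 (14.6%). Scaling by library totals alone turned this split to 1075 higher and 1445 lower, with the median of all genes at -0.17 in place of -0.03. Mesenchymal genes were higher in the RAS tumors in 15 of 20 tested members, macrophage markers in 8 of 9, annexins and S100 genes in 9 of 10 and actin genes in 20 of 23, with none lower in these lists. Precursor genes were lower in 16 of 18 (median -2.15), and cell cycle genes were lower in 7 of 27 and higher in 2. Thbs2 was at 45.6 to 349 CPM in the RAS tumors and averaged 1.60 CPM in the PDGFB tumors (93.1-fold, log2 6.54, adjusted p = 4.24e-06). Grem1, a secreted BMP antagonist, read 53.8, 21.8, 32.7, 77.1 and 151 CPM in the RAS tumors and had no read in the 5 PDGFB tumors (at least 70.7-fold, adjusted p = 5.35e-05). Areg averaged 42.6 ± 20.1 CPM (SD, n = 5) in RAS and 2.53 CPM in PDGFB tumors (log2 3.96, adjusted p = 0.000436). Dusp6 differed by 0.71 (adjusted p = 0.0175) and Etv4 and Etv5 were not called (-0.73 and -0.35). In the other direction, Pdgfra averaged 52.2 CPM in RAS and 211 CPM in PDGFB tumors (log2 -2.01, adjusted p = 4.12e-05). Of 9 excitatory neuron genes, 2 were lower in RAS tumors than in PDGFB tumors and none was higher. The comparison with normal brain and that with PDGFB tumors share the RAS samples.

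Where exons of 2 coding genes overlap on opposite strands, each row may hold reads of either gene, and the rows with the highest values were of this kind. The row of LTO1 (chr7:144915100-144931701, + strand), which shares 1100 bases with the exons of Ccnd1, the cyclin D1 gene induced by ERK, read 24611, 26687, 40852, 23795 and 25710 CPM in the tumors against 664, 576 and 519 CPM (log2 5.59, SE 0.25, adjusted p = 9.88e-11). The Ccnd1 row itself read 517, 529, 531, 436 and 491 CPM against 78.2, 73.9 and 76.2 CPM (log2 2.71, SE 0.20, adjusted p = 3.26e-08). Both rows rose and neither overlapped between groups. If the reads of each row are given to its opposite partner, Ccnd1 rises by 5.64 and LTO1 by 2.75.

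The Ccdc85b row (chr19:5453180-5457894, - strand) covers 57.2% of the exon bases of Fosl1, the FOS-family gene FRA1 that ERK signalling induces. It read 2208, 954, 1411, 2247 and 2782 CPM against 9.77, 13 and 9.3 CPM (177-fold, log2 7.47, SE 0.43, adjusted p = 2.47e-09), and averaged 75.3 CPM in PDGFB tumors (log2 4.67 for RAS against PDGFB, adjusted p = 1.83e-08). The Fosl1 row went the other way, from 106, 102 and 130 CPM in normal brain to 47.1, 61.9, 18.2, 43.8 and 38.6 CPM (-1.42, SE 0.30, adjusted p = 0.000628). With the reads moved to the opposite gene, Fosl1 has a log2 fold change of 7.50 and Ccdc85b one of -1.38. The pair of Malsu1, a mitochondrial ribosome factor, and Igf2bp3, an oncofetal RNA-binding gene, had the same form. The Malsu1 row read 271, 83.7, 67.3, 117 and 349 CPM against 0, 0 and 1.86 CPM (ratio of counts 269, interval 48.1 to 10653), and the Igf2bp3 row fell (-2.44, SE 0.42). With the reads moved to the opposite gene, Igf2bp3 has a log2 fold change of 7.69 and Malsu1 one of -2.39. Which gene of each pair the reads come from was not tested.

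In the lower direction, the Parpbp row, which covers 58.1% of the exon bases of Pmch, the melanin-concentrating hormone gene of hypothalamic neurons, read 0, 5.02, 1.82, 8.76 and 1.76 CPM in the tumors against 991, 572 and 697 CPM (205-fold lower, log2 -7.68, SE 0.51, adjusted p = 1.11e-08). The Pmch row rose instead, from 9.77, 8.69 and 7.44 CPM to between 43.5 and 77.1 CPM (2.86, SE 0.39). The Myocos row, opposite Myoc, read 0, 6.69, 0, 0 and 1.76 CPM against 139, 141 and 152 CPM (74.2-fold lower). The Nefm row, which shares 1108 bases with Nefl, both neurofilament genes, read 6076, 3536, 4100, 9028 and 4446 CPM against 5009, 4851 and 4398 CPM and was not called (0.19, adjusted p = 0.582). The tumor values lay on both sides of the normal ones, and the row averaged 267 CPM in PDGFB tumors. Nefh, the heavy neurofilament, which has no gene opposite, fell 18.7-fold (-4.22, SE 0.64). The Cdk4 row, opposite Tspan31, was 1948 ± 208 CPM (SD, n = 5) against 840 ± 20.2 CPM (SD, n = 3), 2.32-fold higher (1.21, SE 0.15, adjusted p = 5.39e-06).

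Other coding pairs among the largest changes were Zfp961 with Cyp4f18 (ratio of counts 246, interval 44.0 to 9743) and Il27 with Apobr (at least 51.0-fold) in the higher direction, and Hpca with Tmem54 (52.6-fold) and Muc15 with Ano3 (41.1-fold) in the lower. In 822 pairs of coding genes with overlapping exons both rows were tested. The rows of 234 pairs were called in the same direction, those of 65 in opposite directions, 351 pairs had 1 row called and 172 none. Among list members with no gene on the opposite strand, 11 of 12 mesenchymal glioma genes, 11 of 12 actin genes and 20 of 20 ribosomal protein genes rose, and 9 of 10 general neuronal markers and 5 of 5 excitatory markers fell.

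**Figure D5:**
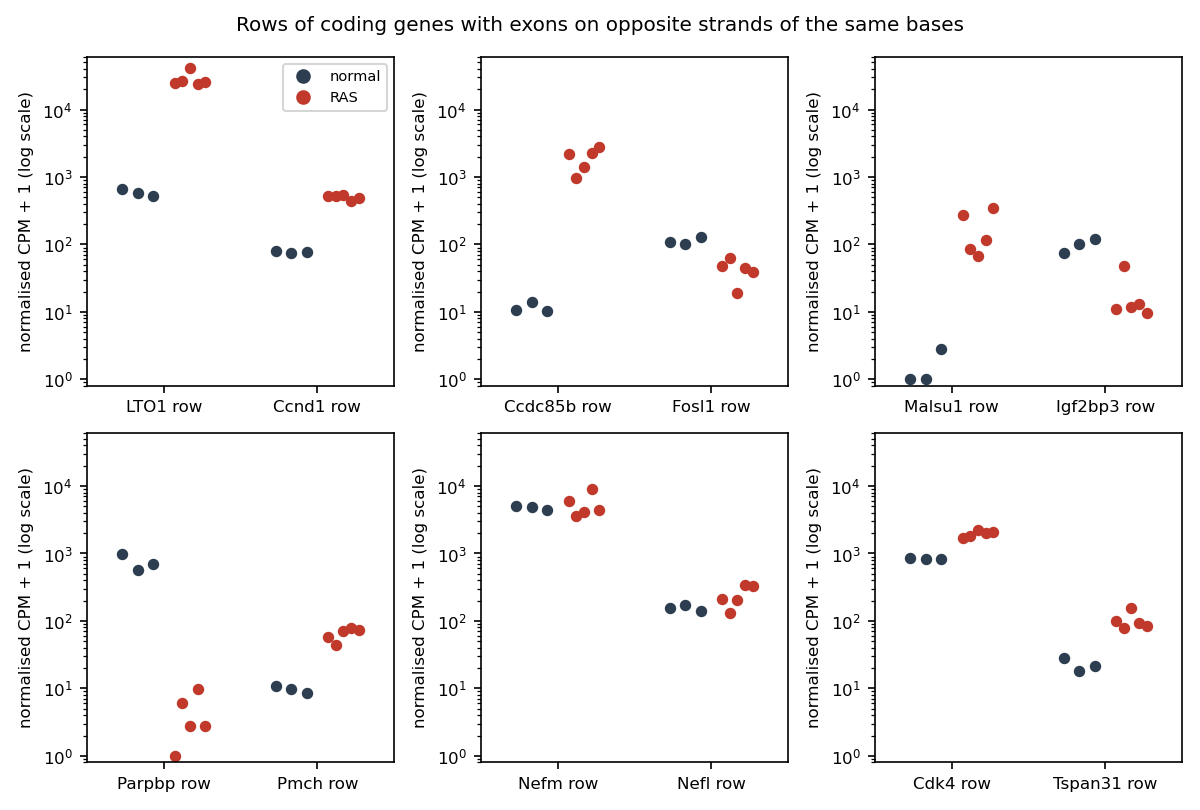
Each panel is a pair of coding genes with exons on opposite strands of the same bases, with normalised CPM + 1 on a log scale for the 3 normal samples and the 5 RAS tumors, the row's gene on the left and its partner on the right. Ccdc85b and Fosl1, Malsu1 and Igf2bp3, and Parpbp and Pmch move in opposite directions, LTO1 and Ccnd1 move together, and the normal and tumor points of Nefm overlap.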

How the data were processed

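RNA of 13 mouse samples was sequenced, and 8 enter the comparison of RAS tumors with normal brain. The deposited table holds raw read counts per gene. Per the submitters' processing notes the authors used fastp 0.22.0, STAR 2.7.9a and GRCm38; the strand setting and gene annotation of the counting are not given in the sources used here. The 4 summary rows were left out of library sizes and tests; between 84.5% and 87.3% of reads fell in the row of reads outside any gene.

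Genes passing filterByExpr (minimum count 10, minimum total 15) were fitted over all 13 libraries with edgeR 4.0.16 in R 4.3.3 (TMM factors, quasi-likelihood test, Benjamini-Hochberg adjustment, threshold 0.05), after the scripts were tested on simulated counts. Opposite-strand genes came from GENCODE M21, which matched 52135 genes and left 3281 unmatched. Intervals and bounds cover counting error only.

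Named genes are Hras, Trp53, Cnp and Pdgfb; the 12 largest rises and 12 largest falls with no opposite gene, and 6 each with an opposite coding gene, among called genes whose groups did not overlap, whose higher mean reached 10 CPM and whose symbol is not a predicted one; and up to 4 members of each of 56 lists. The largest rises and falls were ranked by fitted log2 fold change. Other genes, including those shown for not being called, were chosen after their values were seen. A few named genes are not reported here. Members and lists were chosen with earlier results of these data known. Alternatives were scaling by library totals or by median-of-ratios factors, a looser low-count filter or none, DESeq2 1.42.0, limma 3.58.1 with voom, a fit of only the 2 groups, a stricter threshold of 0.01, a 2-fold minimum, each library left out, only genes with no opposite gene, reads moved to the opposite gene and, for the 2 tumor groups, a replicate block.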

Additional observations from a re-analysis of the deposited data

Results flagged for a closer look

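Of 83 values over the 5 RAS tumors that were examined, 13 had 1 tumor far from the other 4, each time as the highest. Chance alone sets such a mark on about 1 in 20 independent values with a Gaussian spread. The values examined were CPM on a linear scale and some share genes, so whether 13 of 83 exceeds chance was not tested. RAS tumor 5 stood apart in 8 of the 13. Col6a1 was 146 CPM there and 28.5 to 53.8 CPM in the other tumors, Cd74 was 112 CPM against 10.5 to 36.8 CPM, and the Il27 row, whose exons overlap Apobr, was 242 CPM against 50.9 to 80.8 CPM. The fibroblast and meninges list summed to 504 CPM in tumor 5 against 164 to 189 CPM, the ribosomal protein list to 8160 CPM against 2654 to 4154 CPM, and the AP-1 and immediate early list to 981 CPM against 651 to 729 CPM. The inhibitory neuron list reached 1768 CPM in tumor 5 against 26.3 to 375 CPM in the other tumors, and 774 to 872 CPM in normal brain. Of the sum in tumor 5, the Dlx1 row, opposite Dlx1as, held 1671 CPM. The T and NK cell list reached 809 CPM against 276 to 405 CPM, of which 806 CPM lay on the Foxp3 row, whose exons overlap Ccdc22 and Ppp1r3f.

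RAS tumor 2 stood apart in 4. Hipk4 was 147 CPM there and 1.68 to 43.9 CPM in the other tumors. The astrocyte list summed to 882 CPM against 278 to 369 CPM, the excitatory neuron list to 228 CPM against 24.5 to 79.0 CPM and the potassium channel list to 293 CPM against 80.7 to 135 CPM. The list of sex-linked genes summed to 119 CPM in RAS tumor 1 and 21.8 to 42.1 CPM in the other tumors.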

How the results depend on the processing

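Of 190 named genes tested, 180 were called, against 56.2% of all tested genes, because most were picked from among called genes. Of the 180, 160 stayed called under every alternative in which their row was tested. The number of such alternatives differed by gene, for example 15 for Sp110 and 19 for Nes. With each library left out in turn, genes called between RAS tumors and normal brain numbered 3923 to 4470 (1919 to 2311 higher, 1945 to 2159 lower), and between RAS and PDGFB tumors 2026 to 3043 (1088 to 1502 higher, 919 to 1541 lower). Restricting the test to genes with no gene on the opposite strand left 2448 genes, of which 1296 were called against normal brain (657 higher, 639 lower) and 709 against PDGFB tumors (370 and 339); fewer genes were tested there. An adjusted p under 0.01 left 1465 genes between the tumor groups (839 higher, 626 lower). Library totals moved the median of all genes against normal brain from 0.02 to 0.11. With the replicate number as a block, 1705 genes were called between the tumor groups, 890 of them higher. Without the block, the tumors alone gave 1829. Same-numbered samples correlated at -0.128 to 0.139 in their deviations, and differently numbered samples at -0.188 to 0.314. These correlations cannot tell whether same-numbered tumors share a batch, and the labels do not say. No paired analysis was possible for normal brain because its samples carry no matching numbers. Giving each row's reads to the opposite gene reversed Malsu1 (-2.39), Ccdc85b (-1.38), Parpbp (2.89), Pmch (-7.64) and Ndufs1 (2.75). The median of the oligodendrocyte precursor list turned negative with limma-voom (-0.34), without RAS tumor 3 (-0.57) and without normal sample 2 (-0.03), within a range of -0.57 to 0.46 when libraries were left out, and the cause was not tested. At 529162 counted reads or more per library, genes near 2 CPM rest on single reads, which limits lymphocyte, neutrophil and p53 rows most.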

Other observations

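Genes of energy metabolism moved less than those of the matrix. Of 20 tested hypoxia and glycolysis genes 9 were higher in RAS tumors and none lower (median log2 fold change 0.63, against 0.02 over all tested genes). Ldha, the lactate dehydrogenase subunit of glycolytic cells, rose 4.52-fold and the glucose transporter Slc2a1 (exons opposite Gm12868) rose 2.54-fold, whereas Vegfa was not called (-0.19, adjusted p = 0.654). Of 20 tested nuclear genes of oxidative phosphorylation 5 fell and none rose (median -0.61). Over all tested genes 29.3% were called lower and 26.9% higher, so the number that fell does not set this list apart. Without RAS tumor 5, 3 fell, and without RAS tumor 2, 1 rose. Among those that fell were Atp5a1 (-0.61, exons opposite Haus1) and Atp5d (-1.08, exons opposite Cbarp) of the ATP synthase. Of the 10 tested members of this list with no gene on the opposite strand, 1 fell and none rose (median -0.58). Of 10 tested genes of cholesterol synthesis 3 rose and 1 fell. Dhcr7 rose 3.84-fold (adjusted p = 0.0164), a call lost without normal 3, and Hmgcs1, whose exons lie opposite Gm48342, fell (-1.05, adjusted p = 0.018), a call lost without normal 1 or normal 3.

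Axon guidance genes rose in 8 of 15 tested members and fell in 2 (median 1.67), or in 6 of 12 and 2 without RAS tumor 5. Sema3f, a secreted semaphorin, read 26.9, 13.4, 32.7, 24.5 and 10.5 CPM in RAS tumors 1 to 5 and had no read in normal brain (at least 10.8-fold higher). Sema3b rose with a ratio of counts of 38.8 (95% counting interval 6.74 to 1551) and had no read in the PDGFB tumors. Robo2, a receptor of SLIT proteins, fell (-2.91).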
